A study of Mus musculus with 7 samples.

Results

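The genes described here encode the subunits of the NMDA receptor in mouse hippocampus: Grin1 (ENSMUSG00000026959), Grin2a (ENSMUSG00000059003), Grin2b (ENSMUSG00000030209), Grin2c (ENSMUSG00000020734), Grin2d (ENSMUSG00000002771), Grin3a (ENSMUSG00000039579) and Grin3b (ENSMUSG00000035745). They were chosen by symbol, as the whole gene family, and all 7 were found among the 55416 gene identifiers counted. Grin3b did not pass the filter on low counts, so that 6 of the 7 were among the 13152 genes tested. RNA-seq was done on the hippocampus of male, age-matched mice of the outbred CD1 stock, whose age the labels do not give. Control mice received no treatment (3 libraries, replicates 1 to 3), DMSO-treated mice received the vehicle (2 libraries, replicates 2 and 3), and ONX-0914-treated mice received ONX-0914, an inhibitor of the immunoproteasome, at 10 mg/kg (2 libraries, replicates 1 and 2). Both agents were injected intraperitoneally, 2 times per week over 2 months. It is not stated whether a library came from 1 mouse or from several, so that p-values measure the spread between these libraries, which may be partly technical.

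The NMDA receptor is a glutamate-gated cation channel that opens only when glutamate and a co-agonist, glycine or D-serine, are bound and when depolarization has lifted the magnesium block of its pore. The calcium that then enters the dendritic spine starts long-term potentiation and long-term depression at hippocampal synapses. Each receptor combines a pair of GluN1 subunits, encoded by Grin1, with GluN2 subunits, encoded by Grin2a to Grin2d, or GluN3 subunits, encoded by Grin3a and Grin3b. The GluN2 subunit binds glutamate and sets the kinetics of the channel. GluN2B predominates in the developing forebrain and is joined by GluN2A during maturation, whereas GluN2C and GluN2D are known mainly from cerebellum, thalamus, midbrain and interneurons.

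The GluN2 genes are paralogs, so whether reads can tell them apart bears on every value below. They were compared in the GENCODE M21 transcripts of GRCm38. The longest run of coding bases shared by any pair of the 7 genes was 34 bases, between Grin2b and Grin2c. No stretch of 100 bases, the length of a read, occurred in the transcripts of more than 1 of the 7 genes. Grin2a shared 1926 of its 18022 stretches of that length with the processed pseudogene Gm7328, which had 0 counts in every library. These 0 counts do not tell whether reads from the shared stretches were counted for Grin2a. Its level against the other subunits may therefore be too low. On the other strand, Grin1os overlapped 3.42% of the stretches of Grin1, Gm45441 5.34% of those of Grin2d and Tmem259 14.9% of those of Grin3b. The libraries were directional, but the strand setting of the counting is not given in the sources used here, so that reads of these partners may not have been separated.

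The total count on genes was 2842675 to 3877006 in 6 libraries and 13782270 in ONX-0914 replicate 2, so that values of weakly expressed subunits are the most precise in that library. Markers of hippocampal neurons were detected in all libraries, but ONX-0914 replicate 1 stood apart. All 12 genes of a list of thalamus and midbrain markers and all 10 striatal markers were above every control library in it, with summed levels of 1293 and 1412 CPM (counts scaled to library size), against 135 to 173 and 243 to 273 in control. The same sums in ONX-0914 replicate 2 were 139 and 210.3, with 5 of 12 and 4 of 10 markers above every control library. All 5 CA1 markers and all 5 dentate gyrus markers were below every control library in replicate 1, with sums of 190 and 92.6 CPM against 515 to 582 and 315 to 402 in control, whereas replicate 2 had 618 and 293. The sum of 6 general neuron markers was 6121 and 6746 CPM in the ONX-0914 libraries and 8783 to 9373 in control. That of 8 interneuron markers was 1325 and 706 against 616 to 661. Of these 8, 4 were above and 1 was below every control library in replicate 1, and 5 were above and 3 below in replicate 2. Gad2, Slc32a1 and Pvalb were above every control library in replicate 1 and below every one in replicate 2. No marker of these lists was at 0 in every control library. Fitted differences that involve ONX-0914 are therefore also given without either ONX-0914 library, other values are given per library, and the part of these markers in them was not tested.

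**Figure D1:**
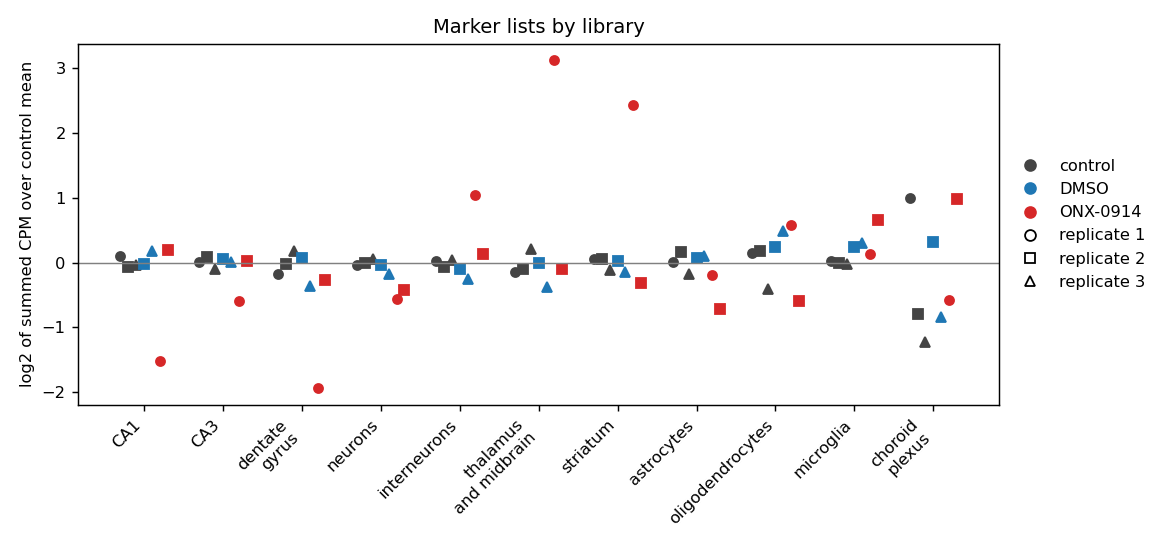
Log2 of the summed CPM of each marker list over its control mean (vertical axis) for 11 lists, with 1 point per library, coloured by group and shaped by replicate number. ONX-0914 replicate 1 has 1293 CPM of thalamus and midbrain markers and 1412 CPM of striatal markers, and it lies below the other libraries for the CA1 and dentate gyrus lists.

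In untreated hippocampus, Grin2b, Grin2a and Grin1 were the abundant subunits, Grin2c was intermediate and the others were low. Per kilobase of annotated exons, the control libraries had 28.2 CPM for Grin2b, 21.9 for Grin2a, 21.6 for Grin1, 13.7 for Grin2c, 1.47 for Grin3a, 1.42 for Grin2d and 0.139 for Grin3b. Grin2a and Grin1 did not differ beyond their spread, and neither did Grin3a and Grin2d. The place of Grin1 depended on the length used, since per kilobase of the longest coding transcript Grin1 was first at 49.0 CPM, ahead of Grin2b at 29.1 and Grin2a at 26.8. With either length the order below these genes was Grin2c, Grin3a and Grin2d.

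**Figure D2:**
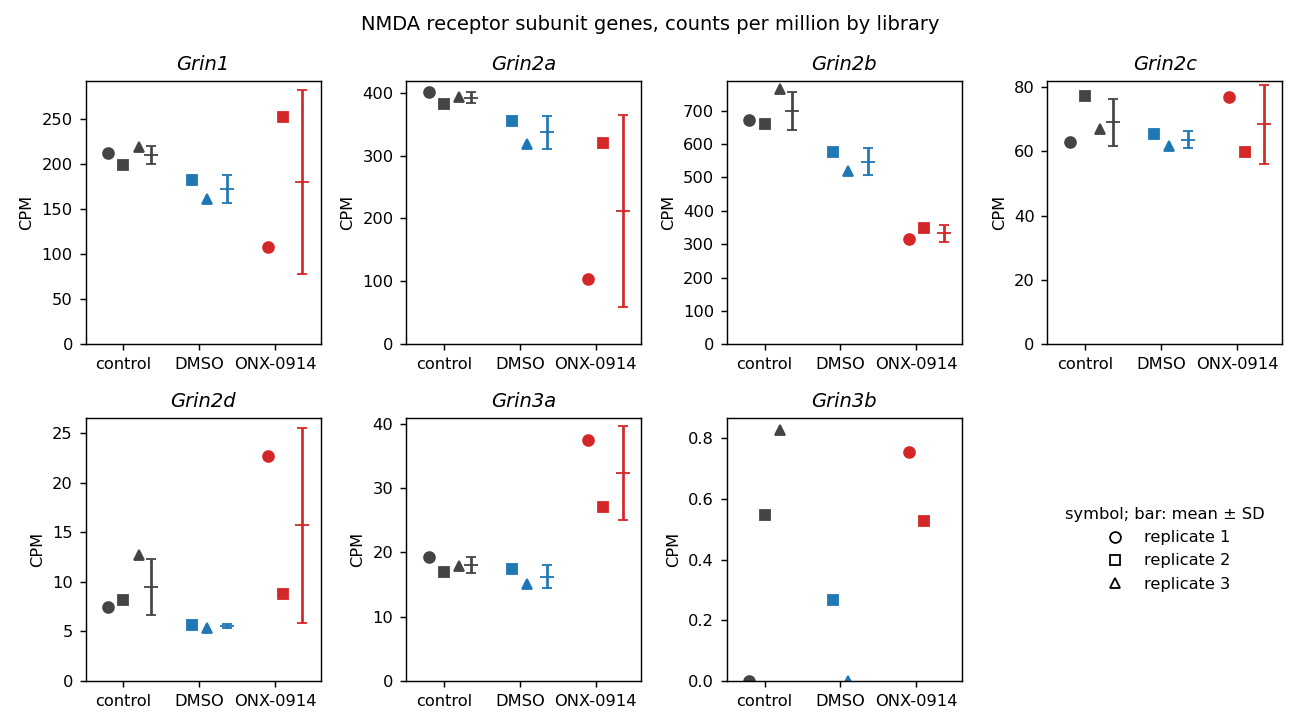
CPM of each subunit gene in each library, with 1 point per library grouped by treatment and shaped by replicate number, and bars for the mean ± SD of the group where the gene was tested. Both ONX-0914 libraries lie below all control and DMSO libraries for Grin2b and above them for Grin3a, whereas the ONX-0914 libraries are far apart for Grin1, Grin2a and Grin2d.

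To ask whether the receptor genes differed after long-term ONX-0914, each was compared between ONX-0914-treated and control mice. Grin2b was about 2 times lower and Grin3a higher in both ONX-0914 libraries, while the values of Grin1, Grin2a and Grin2d differed widely between these libraries. None of the 6 genes tested had an FDR (Benjamini–Hochberg, over all genes of the edgeR quasi-likelihood fit) under 0.05, where 0.114% of all genes did. At an unadjusted p under 0.05 there were 2 of 6 (18.6% of all genes), 1 higher (10.6%) and 1 lower (8.04%). In 2 of the 6 genes both treated libraries were under the whole control range (16.3% of all genes), and in 1 they were over it (16.9%). The median Log2FC of the 6 genes was -0.12, and that of all genes was 0.05. In bulk tissue, fewer cells of a type and less RNA per cell cannot be told apart.

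Grin1 encodes the obligatory GluN1 subunit. Its level was 212, 198 and 218 CPM in control replicates 1 to 3, 182 and 161 CPM in DMSO replicates 2 and 3, and 107 and 252 CPM in ONX-0914 replicates 1 and 2. One ONX-0914 library thus lay below and the other above every other library. The Log2FC between ONX-0914 and control was -0.22 (SE 0.314, 95% interval -0.94 to 0.50, edgeR FDR = 0.722). It was 0.25 (FDR = 0.0838) without replicate 1 and -0.97 (FDR = 1.74e-05) without replicate 2. In such fits the lone ONX-0914 library is assumed to vary like the other groups, and many genes were called, 51.2% of those tested without replicate 1 and 19.0% without replicate 2.

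Grin2b, which encodes the GluN2B subunit with its long cytoplasmic tail that binds CaMKII, gave the most even difference of the family. Its level was 672, 661 and 766 CPM in the control libraries, 576 and 518 CPM in the DMSO libraries, and 315 and 349 CPM in the ONX-0914 libraries. All 5 libraries without ONX-0914 were above both with it, which 11.3% of all genes showed, and the ONX-0914 libraries differed from each other by 0.15 on the log2 scale, less than did 85.2% of the genes tested. The mean was 332 ± 24.5 CPM (SD, n = 2) with ONX-0914 and 700 ± 57.7 (SD, n = 3) in control, a Log2FC of -1.07 (SE 0.182, 95% interval -1.49 to -0.66). Its edgeR FDR was 0.0727, with an unadjusted edgeR p of 0.00032 over the 7 libraries. An FDR under 0.1 was reached by 1.48% of all genes and, within the family, by Grin2b alone.

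Whether the call of Grin2b passed 0.05 depended on the settings. Over 18 alternatives its Log2FC lay between -1.16 and -0.93. Apart from the fits with a lone ONX-0914 library, its FDR lay between 5.53e-05 and 0.371, and most of these settings left it over 0.05. Among them, it was under 0.05 only with DESeq2 (FDR = 5.53e-05, with 2.95% of all genes called), no filter on low counts (0.0082, 2.15%), and the 5 control and DMSO libraries as reference (0.0388, 2.61%). The fits with a lone ONX-0914 library gave a Log2FC of -1.01 without replicate 1 and -1.16 without replicate 2. Per 1000 counts of the 6 general neuron markers, Grin2b had 73.8 to 81.7 counts in control, 65.2 and 65.5 with DMSO, and 51.4 and 51.8 with ONX-0914, so that the groups did not overlap on this scale either.

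Grin2a encodes GluN2A, the other main GluN2 subunit of the adult forebrain. Its level was 401, 383 and 393 CPM in control, 355 and 318 CPM with DMSO, and 104 and 320.1 CPM with ONX-0914. Both ONX-0914 libraries were below all control libraries, but replicate 2 lay between the DMSO libraries. The Log2FC against control was -0.88 (SE 0.395, 95% interval -1.79 to 0.03, edgeR FDR = 0.279). It came to -0.30 (FDR = 0.0363) without replicate 1 and to -1.91 (FDR = 6.23e-10) without replicate 2. The difference of 1.61 on the log2 scale between the ONX-0914 libraries was exceeded by 8.56% of the genes tested.

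Grin2c and Grin2d encode the GluN2 subunits with the weaker magnesium block. The level of Grin2c was 62.7 to 77.2 CPM in control, 61.8 and 65.5 CPM with DMSO, and 77 and 59.7 CPM with ONX-0914, and the groups overlapped. Its Log2FC was -0.02 (SE 0.185, 95% interval -0.44 to 0.41, edgeR FDR = 0.967), an interval that leaves room for differences of up to about 0.4 on the log2 scale in either direction, and the Log2FC was -0.22 without replicate 1 and 0.15 without replicate 2. Per 1000 counts of the general neuron markers, in contrast, Grin2c had 7.14 to 8.62 in control and 12.6 and 8.85 with ONX-0914, higher in both libraries. The summed markers were themselves lower with ONX-0914 (6121 and 6746 CPM against 8783 to 9373 in control). A gene with unchanged CPM is therefore higher on this scale.

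Grin2d was weakly expressed, with 7.49, 8.18 and 12.7 CPM in control, 5.63 and 5.35 CPM with DMSO, and 22.7 and 8.72 CPM with ONX-0914. The high value belongs to ONX-0914 replicate 1 alone, the library with the raised thalamic and striatal markers. The Log2FC was 0.65 (SE 0.433, 95% interval -0.34 to 1.65, edgeR FDR = 0.430). It was -0.14 (FDR = 0.674) without replicate 1 and 1.24 (FDR = 0.00246) without replicate 2.

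Grin3a encodes GluN3A, a glycine-binding subunit known to lower calcium permeability and to be most abundant in the immature brain. Its level was 19.3, 16.9 and 17.9 CPM in control, 17.4 and 15 CPM with DMSO, and 37.5 and 27.1 CPM with ONX-0914. Both ONX-0914 libraries were above all 5 others, as in 11.4% of all genes. The mean was 32.3 ± 7.36 CPM (SD, n = 2) against 18 ± 1.18 (SD, n = 3), a Log2FC of 0.83 (SE 0.219, 95% interval 0.33 to 1.33, edgeR FDR = 0.135). The Log2FC was 0.58 (FDR = 0.00978) without replicate 1 and 1.06 (FDR = 0.000543) without replicate 2, and against the 5 libraries without ONX-0914 it was 0.88 (FDR = 0.0451). Grin3a also stayed apart per 1000 neuron marker counts, at 1.89 to 2.19 in control and 6.13 and 4.02 with ONX-0914. As for Grin2c, this scale raises the values with ONX-0914.

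Grin3b, which encodes GluN3B, known chiefly from motor neurons, had 0, 2 and 3 counts in control, 1 and 0 with DMSO, and 3 and 8 with ONX-0914. The libraries without a count allow a level of up to 1.07 CPM, at 3 counts. These limits cover counting error only, and no difference between groups was detectable at this depth. The antisense gene Grin1os (ENSMUSG00000085830) had 12 to 59 counts per library, with 7.44 to 9.54 CPM in control, 3.22 and 9.64 with DMSO, and 8.05 and 3.90 with ONX-0914, and the groups overlapped.

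**Figure D3:**
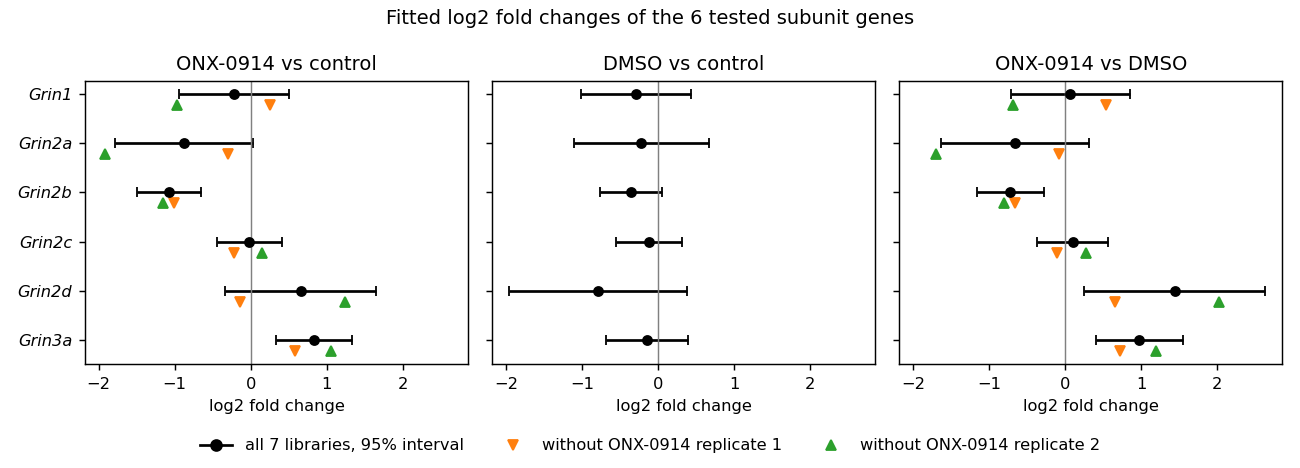
Log2FC of the 6 tested subunit genes in the 3 comparisons, with 95% intervals of the edgeR fit over 7 libraries (black), and, where ONX-0914 is compared, triangles for the values without ONX-0914 replicate 1 (orange) and without replicate 2 (green). The interval of Grin2b (-1.49 to -0.66) and that of Grin3a (0.33 to 1.33) against control leave out 0, and in that comparison the triangles of Grin1 and Grin2d lie on opposite sides of 0.

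Vehicle-treated mice were set against mice without injections as the background of the treatment. All 6 genes had a negative Log2FC with DMSO relative to control, and their median was -0.25 against 0.00 for all genes. In the fit over all 7 libraries, none had an edgeR FDR under 0.05 (0.0152% of all genes did) or an unadjusted p under 0.05 (2.65%). That fit shares 1 estimate of the spread with the ONX-0914 libraries. With only the control and DMSO libraries fitted, none had an FDR under 0.05 either. An unadjusted edgeR p under 0.05 was then reached by 4 of 6 subunits and by 1897 of 12688 genes. Grin2b had a Log2FC of -0.35 there (SE 0.097, edgeR FDR = 0.0803). The DMSO libraries lay below all control libraries for Grin1, Grin2a, Grin2b and Grin2d, 4 of 6 genes, where 15% of all genes did, and above them for none (15.7%). In the fit over all 7 libraries, the Log2FC was -0.35 for Grin2b (95% interval -0.76 to 0.05), -0.29 for Grin1 and -0.22 for Grin2a. It was -0.79 for Grin2d, -0.12 for Grin2c and -0.15 for Grin3a, and each had an edgeR FDR of 0.99994. For Grin2b, the control, DMSO and ONX-0914 libraries thus formed successive ranges without overlap, an order whose share over all genes was not counted.

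Set against their own vehicle, ONX-0914-treated mice had 0 of 6 genes with an edgeR FDR under 0.05, where 0.0456% of all genes were called, and 3 with an unadjusted p under 0.05 (14.7% of all genes), 2 higher (8.08%) and 1 lower (6.65%). The ONX-0914 libraries lay below both DMSO libraries for Grin2b (19.7% of all genes lay lower) and above them for Grin2d and Grin3a (20.8% lay higher). The Log2FC of Grin2b was -0.72 (SE 0.194, 95% interval -1.16 to -0.28, edgeR FDR = 0.199). That of Grin3a was 0.98 (SE 0.248, edgeR FDR = 0.180) and that of Grin2d 1.44 (SE 0.518, edgeR FDR = 0.278). Without replicate 1 the values were -0.66, 0.72 and 0.65, and without replicate 2 they were -0.80, 1.19 and 2.03. Grin2a, at -0.66 (edgeR FDR = 0.466), came to -0.08 without replicate 1 and to -1.69 without replicate 2, and Grin1, at 0.07, came to 0.54 and -0.68. Grin2c, at 0.10, came to -0.10 and 0.27. In these fits 46.0% and 17% of all genes were called. This comparison shares its ONX-0914 libraries with the one against control.

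Ratios between subunits within a library do not depend on the scaling of libraries. The ratio of Grin2b to Grin2a counts was 1.68, 1.73 and 1.95 in control, 1.62 and 1.63 with DMSO, and 3.01 and 1.09 with ONX-0914. The ONX-0914 libraries lay on either side of all others, and the log2 ratio differed from control by 0.03 (two-sided exact permutation p = 1, smallest possible 0.2). Relative to Grin1, both main GluN2 genes were lower in both ONX-0914 libraries. Grin1 itself was below every other library in replicate 1 (107 CPM) and above every other in replicate 2 (252 CPM), so that these ratios also carry its differences. The share of all genes with such a ratio to Grin1 was not counted. The ratio of Grin2a to Grin1 was 0.974 and 1.27 with ONX-0914, below the 1.80 to 1.98 of the other 5 libraries, and the ratio of Grin2b to Grin1 was 2.94 and 1.39, below the 3.16 to 3.51 of the others. For both, the exact permutation p against the 5 other libraries was 0.0952, the smallest that 2 against 5 allows, and 0.356 after Benjamini–Hochberg adjustment over the 16 ratio tests. Against control alone the exact p was 0.2, again the smallest possible. Grin3a relative to Grin1 was 0.0820 to 0.0956 in the 5 libraries without ONX-0914 and 0.350 and 0.108 with it.

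As shares of the summed GluN2 level per kilobase of exons, Grin2b made up 41.3% to 45.4% in control, 40.4% and 40.8% with DMSO, and 34.1% and 31.2% with ONX-0914. Its share was thus lower in both ONX-0914 libraries, while the other shares depended on the library. Grin2a took 32.3% to 35.5% in control and 34.4% and 34.8% with DMSO, but 15.7% in ONX-0914 replicate 1 and 39.6% in replicate 2. Grin2c took 19.5% to 23.8% in the 5 libraries without ONX-0914 and 41.1% and 26.3% with it. Grin2d reached 9.15% in ONX-0914 replicate 1 and was between 1.49% and 2.91% elsewhere. The summed CPM of all 4 GluN2 genes (not per kilobase) was 1129 to 1239 in control, 1002 and 904 with DMSO, and 519 and 738 with ONX-0914.

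**Figure D4:**
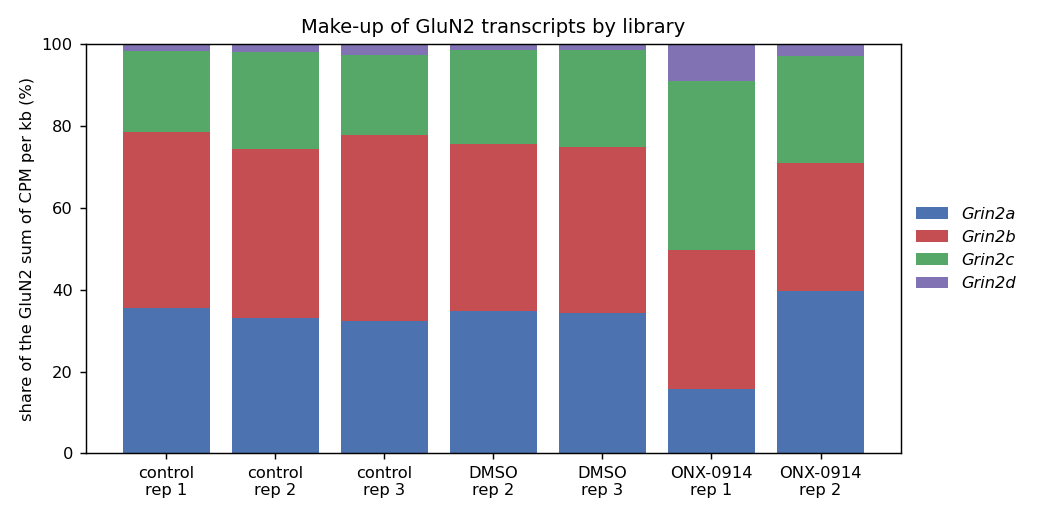
Shares of Grin2a, Grin2b, Grin2c and Grin2d in the summed GluN2 level (CPM per kilobase of exons), in percent, as 1 stacked bar per library. The 5 bars without ONX-0914 are alike, ONX-0914 replicate 1 has a Grin2c share of 41.1%, and both ONX-0914 bars have a lower Grin2b share than the rest.

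The partners of the receptor were described over 4 lists, with the other ionotropic glutamate receptor genes as a comparison family. None of the genes in these lists had an edgeR FDR under 0.05 in any of the 3 comparisons. Among 19 genes for scaffolds and trafficking, which hold the receptor at the postsynaptic density, the median Log2FC between ONX-0914 and control was -0.21, with 1 gene higher and 3 lower at an unadjusted p under 0.05, where 10.6% of all genes were higher and 8.04% lower. Dlg3, which encodes the scaffold protein SAP102, a partner of GluN2B, had 383 to 431 CPM in control, 317 and 313 with DMSO, and 213 and 209 with ONX-0914. Its groups formed successive ranges without overlap, as did those of Grin2b, an order whose share over all genes was not counted. Dlg3 was picked for the smallest p of its list, and a link between the genes was not tested. The Log2FC of Dlg3 was -0.93 (SE 0.162, edgeR FDR = 0.0728), and it was -0.95 without replicate 1 and -0.91 without replicate 2. Lin7c, which encodes part of the complex that carries GluN2B along dendrites, had a Log2FC of -0.70 (edgeR FDR = 0.124), which was -0.62 without replicate 1 and -0.80 without replicate 2. Dlg1, for SAP97, had 0.40 (edgeR FDR = 0.234), with 0.32 and 0.47 in these fits. The sign of the list's median depended on a library, since it came to 0.04 when ONX-0914 replicate 1 was left out and to -0.49 when replicate 2 was.

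Of 14 genes for signalling proteins bound to or downstream of the receptor, 13 had a negative Log2FC, and 8 were lower at an unadjusted p under 0.05, where 8.04% of all genes were. The median was -0.73, and it was -0.37 without replicate 1 and -0.64 without replicate 2, with 11 and 13 genes negative. Prkca, a calcium-dependent protein kinase C, had 473 to 497 CPM in control, 411 and 337 with DMSO, and 111 and 285 with ONX-0914 (Log2FC -1.28, SE 0.355, edgeR FDR = 0.144). Its size depended on the library, with -0.78 without replicate 1 and -2.13 without replicate 2. Ppp1r9b, which encodes the spine protein spinophilin, had 3714 to 3941 CPM in control and 2367 and 1283 with ONX-0914 (Log2FC -1.08, edgeR FDR = 0.147), and it moved the other way, to -1.60 without replicate 1 and -0.71 without replicate 2. For Calm3, a calmodulin gene, the values were 3172 to 3526 and 2172 and 1753 CPM (Log2FC -0.75, edgeR FDR = 0.170), with -0.92 without replicate 1 and -0.60 without replicate 2. In each of these genes, which were taken as those with the smallest p of the list, both ONX-0914 libraries were below the 5 others, as in 11.3% of all genes.

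The list of kinases, phosphatases and turnover factors of the subunits was near the middle of all genes, with a median of -0.11 over 14 genes (-0.02 without replicate 1 and -0.05 without replicate 2), 2 of them higher and 1 lower at an unadjusted p under 0.05, against 10.6% and 8.04% of all genes. Fyn, the Src-family kinase that phosphorylates GluN2B, had a Log2FC of -0.56 (edgeR FDR = 0.231), which was -0.96 without replicate 1 and -0.26 without replicate 2. Ptpn5, which encodes the opposing phosphatase STEP, had 0.65 (edgeR FDR = 0.234). The value of Ptpn5 came to 0.20 once ONX-0914 replicate 1 was left out and to 0.97 once replicate 2 was, so that it rested mostly on replicate 1. Ptprd, a receptor-type tyrosine phosphatase, had 0.52 (edgeR FDR = 0.168), with 0.66 without replicate 1 and 0.35 without replicate 2. For the supply of co-agonist, 14 of 15 genes were tested, with a median of 0.07 that was -0.08 without replicate 1 and 0.03 without replicate 2. The serine exchanger Slc7a10 had a Log2FC of 1.02 (edgeR FDR = 0.170), which was 1.34 without replicate 1 and 0.53 without replicate 2. The glycine transporter Slc6a9 had 0.88 (edgeR FDR = 0.237), which was 0.26 without replicate 1 and 1.34 without replicate 2. Psph, for the last enzyme of serine synthesis, had -0.54 (edgeR FDR = 0.231), which was -0.82 without replicate 1 and -0.28 without replicate 2.

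The 11 AMPA, kainate and delta receptor genes had a median of 0.01, with 6 positive and 5 negative values, and 2 genes lower at an FDR under 0.1, which 1.48% of all genes reached. The median was -0.09 without replicate 1 and 0.04 without replicate 2. The 2 genes were Gria1 and Gria2, which encode the main AMPA receptor subunits of pyramidal cells. Gria1 had 1683 to 1850.2 CPM in control, 1587 and 1380 with DMSO, and 496 and 667 with ONX-0914 (Log2FC -1.60, SE 0.228, edgeR FDR = 0.0510), and the Log2FC was -1.41 without replicate 1 and -1.83 without replicate 2. For Gria2 the Log2FC was -1.04 (SE 0.222, edgeR FDR = 0.0992), with -0.79 and -1.36 in these fits. For Grik4, a high-affinity kainate receptor subunit, it was -1.21 (edgeR FDR = 0.101), with -0.87 and -1.74. All 3, taken as those with the smallest p of the list, had both ONX-0914 libraries below the 5 others (11.3% of all genes), as had Grin2b. At an unadjusted edgeR p under 0.05, 3 genes of the list were lower and 1 was higher, against 8.04% and 10.6% of all genes. Both ONX-0914 libraries were over the whole control range in 1 gene (16.9% of all genes).

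**Figure D5:**
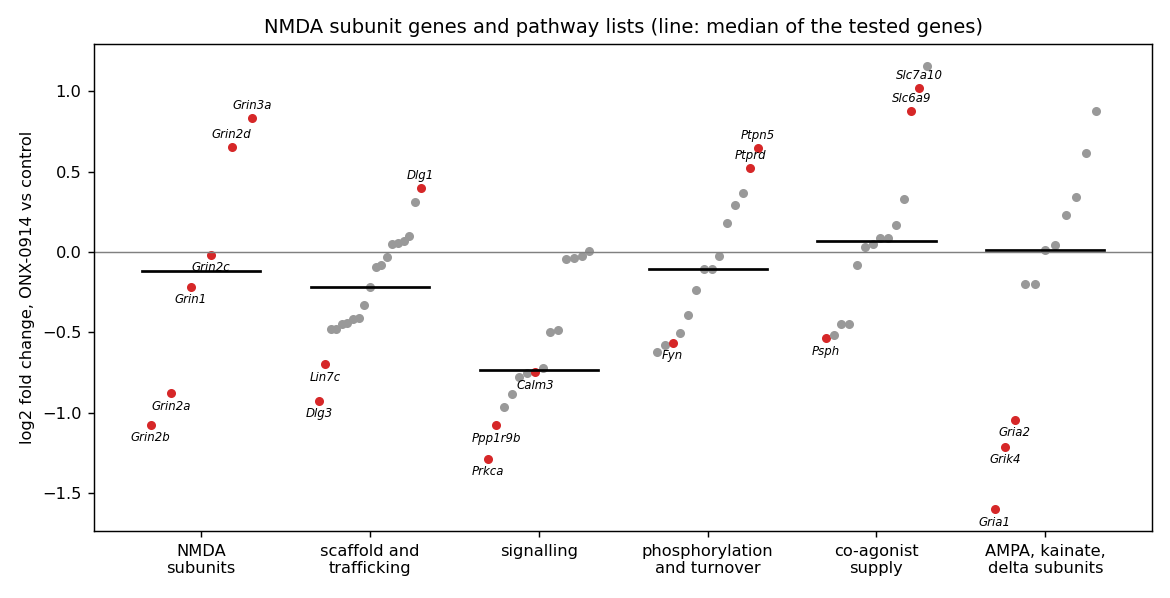
Log2FC between ONX-0914 and control for each tested NMDA subunit gene and each tested gene of the 4 partner lists and of the other ionotropic glutamate receptors, with 1 point per gene, the genes named in the text in red and the median of each list as a line. The list of signalling proteins has 13 of 14 points below 0 and a median of -0.73, and the medians of the others lie between -0.21 and 0.07.

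Over the 7 libraries, each subunit gene had a different set of nearest genes by Pearson correlation of log2 CPM, which is given as a description, since the 2 ONX-0914 libraries carry most of the variation and the points share depth and scaling. The nearest to Grin1 were Sez6l (r = 0.992), Ntrk3 and Ehd3. Those to Grin2a were Kcnq5 (r = 0.998), Sstr4 and Mast3, among 177 genes with r over 0.95. Those to Grin2b were Pja2 (r = 0.991), Dlg3 (r = 0.989) and Thbs4 (r = 0.986), among 55 such genes. Grin2d was nearest to Kcnab3 (r = 0.985), Map3k20 and Plekha6, and Grin3a to Gys1 (r = 0.990), Gtf2ird1 and Rufy3. No gene had r over 0.95 with Grin2c, whose nearest was Npffr1 (r = 0.943). Among the members, Grin1 and Grin2a had r = 0.863 over the 7 libraries, while Grin1 and Grin2b had 0.471. Over the 5 libraries without ONX-0914 the values were alike, at 0.981 and 0.969.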

How the data were processed

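The deposited values are whole-number read counts per gene and library. Per the labels, the authors prepared directional libraries from RNA with an integrity number of at least 8 and read 100 bases from a single end. The submitters' processing notes name Trimmomatic 0.39, STAR 2.7.3a, featureCounts 2.00 and GRCm39; the annotation release and the strand setting are not given in the sources used here. Of the reads in the files, 89.6% to 91.4% were assigned to genes, and the rest stayed out of library sizes and tests. Symbols were matched by identifier to GENCODE M21 (52083 of 55416 identifiers, 99.8% of the counts), which also gave the exon and transcript lengths. That annotation is of GRCm38, and therefore no coordinates are given. Coding sequences of the subunits are not reported here.

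Differential expression was tested with edgeR 4.0.16 (R 4.3.3): filterByExpr over the 3 groups, TMM scaling, glmQLFit and glmQLFTest with 1 mean per group over all 7 libraries, Benjamini–Hochberg adjustment over all 13152 genes tested and a threshold of 0.05. Log2FC values carry a prior count of 0.125, and CPM use TMM-scaled library sizes. Alternatives were limma 3.58.1 (voom), DESeq2 1.42.0, other scalings and filters, the compared groups alone, the replicate number as a block, and each library left out. Ratios were compared by exact permutation of libraries. The fit was also run on simulated counts, and the outcome is not reported here. The control and DMSO pairs had a chi-square per degree of freedom of 2.63 to 3.40 and the ONX-0914 pair 84.9, so that no library was a copy of another.

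The genes named were all 7 subunits, the 3 genes nearest in pattern to each subunit whose own mean is at least 10 CPM, the 3 genes of each list with the smallest unadjusted p, and antisense partners. The members, the lists and the rules were chosen with earlier results of these data known. The values per 1000 neuron marker counts and the lists without single ONX-0914 libraries were added after seeing the data.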

Additional observations from a re-analysis of the deposited data

How the results depend on the processing

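Each treated group holds 2 libraries, so that its spread rests on a single difference, and subunits under about 20 CPM rest on few counts. Of 312 fitted values of single subunits under the alternatives, 282 kept their sign and their side of the 0.05 threshold, 19 passed it in addition and 11 changed sign. The number of all genes called between ONX-0914 and control, 15, was 388 with DESeq2, 578 without a filter on low counts, 3 with only the compared groups, 1 with the replicate number as a block, 343 against the 5 libraries without ONX-0914, and 0 to 7023 with single libraries left out. Of the subunits, 1 was called with DESeq2, 1 without a filter, 2 against the 5 libraries, and 0 to 5 with single libraries left out. For DMSO against control, 2 genes became 9 (DESeq2), 0 (voom, 300 genes at an unadjusted p under 0.05), 11 (no filter), 0 (at least 10 counts, 290 genes at that p), 141 (compared groups alone), 0 (block, 281 genes at that p) and 0 to 146 (single libraries left out). For ONX-0914 against DMSO, 6 became 245 (DESeq2), 11 (RLE size factors), 3 (total counts), 297 (no filter), 10 (at least 10 counts), 0 (compared groups alone, 821 genes at that p), 0 (block, 1641 genes at that p) and 0 to 6313 (single libraries left out), with 0 to 5 subunits in the last. The 7023 and 6313 calls came without ONX-0914 replicate 1, against 2594 and 2324 without replicate 2, and leaving out any control library left 0 edgeR calls in all 3 comparisons, with 1424 to 1554, 170 to 236 and 1415 to 1446 genes at an unadjusted p under 0.05. For equal replicate numbers, correlations of deviations from the group mean lay between -0.0963 and 0.064. In a group of 2 libraries these deviations mirror each other, so that the check cannot settle whether the numbers pair the libraries. With the replicate number as a block, Grin2b had a Log2FC of -1.05 against control (edgeR FDR = 0.238). The difference of the log2 ratio of Grin2b to Grin2a from control, 0.03, ranged from -0.71 to 0.76 with single libraries left out, the extremes being without ONX-0914 replicates 1 and 2. The sign turned against control for Grin1 (range -0.97 to 0.25 over single libraries left out) and Grin2d (-0.14 to 1.24), in both without ONX-0914 replicate 1, and for Grin2c with total counts (0.12), at least 10 counts (0.0055), against the 5 libraries (0.026), and without control replicate 2 or ONX-0914 replicate 2 (-0.22 to 0.15). Against DMSO it turned for Grin1 with voom (-0.11), and without DMSO replicate 3 or ONX-0914 replicate 2 (-0.68 to 0.54), and for Grin2c without ONX-0914 replicate 1 (-0.10 to 0.27). Apart from the left-out libraries, the cause of these changes was not tested.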
